A study of Mus musculus with 9 samples.

Results

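Secretory IgA in the colon needs plasma cells that make the antibody and epithelial cells that carry it into the lumen. The 5 genes described here cover both sides: Pigr, the epithelial transporter of polymeric IgA, and the plasma cell genes Jchain, Mzb1, Derl3 and Tnfrsf17. They were taken from the deposited table by gene name, 5 of 55401 genes, and all 5 were among the 14506 genes that were tested, those whose FPKM (fragments scaled by transcript length and library depth) averaged 1 or more. The libraries were made from colonic tissue of mice labelled WT, 3 labelled berberine (a plant alkaloid), 3 labelled high-fat diet with AOM/DSS and 3 labelled chow diet with AOM/DSS. AOM/DSS, commonly read as azoxymethane plus dextran sulfate sodium, is a chemical model of colitis-driven colon tumours, and it stands in the titles of the diet libraries but not in those of the berberine libraries. The diet of the berberine group, the strain, age and dose, and whether each library is a separate animal are not given in the sources used here, so p-values measure the spread between these libraries.

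Library totals ran from 51961764 to 69007117 estimated counts. Some libraries held more RNA of other tissues, read from scores of marker lists (the mean log2(CPM + 1) of a list less its chow mean, with CPM as counts scaled to library size). Berberine replicates 1 and 2 had adipocyte scores of 3.34 and 3.01, chow replicate 3 a striated muscle score of 3.8 and chow replicate 1 a squamous epithelium score of 1.9, each above all other libraries. Other lists set a whole group apart rather than a single library. For smooth muscle this was chow alone, with berberine inside the high-fat diet range. The mast cell score ran from 0.28 to 0.70 in berberine, from 3.26 to 6.36 in high-fat diet and from -0.12 to 0.08 in chow, and the smooth muscle score from -1.26 to -1.06 in berberine, from -2.84 to -0.63 in high-fat diet and from -0.22 to 0.20 in chow. The part of these tissues and cells in the values of the 5 genes was not tested. The 5 genes were also tested with each library left out in turn, and where this changed a call its value is given.

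In the lamina propria, the tissue under the gut epithelium, plasma cells join IgA monomers into dimers through the joining chain, the product of Jchain. Mzb1 encodes a chaperone of the endoplasmic reticulum that takes part in antibody assembly, and Derl3 a Derlin protein that helps remove misfolded proteins from that compartment. Tnfrsf17 encodes BCMA, a receptor for the survival factors APRIL and BAFF on plasma cells. Pigr binds dimeric IgA at the base of epithelial cells, carries it across the cell and is cleaved at the surface, leaving its outer part attached to the antibody.

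By the coordinates in the table and GENCODE M21, both on GRCm38, Pigr (ENSMUSG00000026417) lies on chromosome 1 from 130826684 to 130852249 and its principal transcript has 11 exons. Jchain (ENSMUSG00000067149) lies on chromosome 5 from 88519809 to 88527891 with 4 exons, and Derl3 (ENSMUSG00000009092) on chromosome 10 from 75893413 to 75895941 with 7 exons. Tnfrsf17 (ENSMUSG00000022496) lies on chromosome 16 from 11313812 to 11320074 with 3 exons. No other gene of the table overlaps these 4.

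The 250 bases before the RefSeq start of 4 of the genes are shown because they hold the sequence next to which transcription of both sides of the IgA path begins (RefSeq, GRCm38.p6, 5′ to 3′ on the gene's strand). The RefSeq start is the one given above for Pigr, and lies upstream of the one given above for Jchain, Derl3 and Tnfrsf17. Capitals mark matches, on either strand, to CCACG, to CACGTG (an E-box), to GAAA repeated with 2 free bases between (an interferon response element core) and to CCAAT followed after 9 free bases by CCACG (the element of the endoplasmic reticulum stress response). The octamer ATGCAAAT of antibody gene promoters was also searched and is in none of the 4 windows.
Pigr, chr1:130826434-130826683, plus strand: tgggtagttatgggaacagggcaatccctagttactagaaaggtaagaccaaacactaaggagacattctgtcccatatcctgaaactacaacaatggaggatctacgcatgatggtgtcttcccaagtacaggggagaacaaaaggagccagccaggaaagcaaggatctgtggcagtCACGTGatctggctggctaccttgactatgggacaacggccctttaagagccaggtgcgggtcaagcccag
Jchain, chr5:88527898-88528147, minus strand: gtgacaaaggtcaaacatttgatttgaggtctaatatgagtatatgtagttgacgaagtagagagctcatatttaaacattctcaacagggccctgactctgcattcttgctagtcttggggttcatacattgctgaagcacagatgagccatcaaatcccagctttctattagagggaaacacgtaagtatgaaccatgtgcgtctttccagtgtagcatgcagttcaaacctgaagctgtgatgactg
Derl3, chr10:75893148-75893397, plus strand: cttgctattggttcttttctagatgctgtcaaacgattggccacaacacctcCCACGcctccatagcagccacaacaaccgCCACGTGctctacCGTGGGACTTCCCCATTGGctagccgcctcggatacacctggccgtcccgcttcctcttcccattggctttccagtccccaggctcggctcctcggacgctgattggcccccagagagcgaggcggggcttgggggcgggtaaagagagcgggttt
Tnfrsf17, chr16:11313559-11313808, plus strand: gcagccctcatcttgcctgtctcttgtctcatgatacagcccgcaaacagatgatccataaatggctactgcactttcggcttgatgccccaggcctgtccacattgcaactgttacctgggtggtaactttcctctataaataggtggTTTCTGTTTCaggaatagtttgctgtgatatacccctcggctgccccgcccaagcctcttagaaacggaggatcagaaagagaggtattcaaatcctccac
Derl3 holds the long stress element on the opposite strand from -156 to -138, counted back from the RefSeq start, an arrangement found in 0.113% of 32851 windows of this length, and its CCACG end is also counted among the 3 CCACG matches (28.3% of windows hold at least 1). The E-box of Derl3 overlaps another of those matches, and Pigr has an E-box from -71 to -66 (6.02% of windows). Tnfrsf17 has the interferon core from -101 to -92 (2.98% of windows), and the Jchain window holds no match. A match describes the letters only, and no binding was measured.

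Pigr, the IgA transporter, was low in the high-fat diet libraries. It stood at 3089, 4212 and 4331 CPM in the berberine libraries, at 688, 1221 and 729 CPM in the high-fat diet libraries and at 3363, 3248 and 1613 CPM in the chow libraries. All high-fat diet libraries were below all others, while berberine and chow overlapped. High-fat diet averaged 879 ± 297 CPM and chow 2741 ± 979 CPM (SD, n = 3 each), a fall of Pigr by 1.64 ± 0.35 on the log2 scale (SE; edgeR adjusted p = 0.00851). Berberine averaged 3877 ± 686 CPM (SD, n = 3), 4.41-fold above high-fat diet (log2 fold change 2.14 ± 0.35, edgeR adjusted p = 0.00296). Against chow the difference of 0.50 ± 0.34 for Pigr did not pass (edgeR adjusted p = 0.626; 0.24 on the log2 scale without chow replicate 3).

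**Figure D1:**
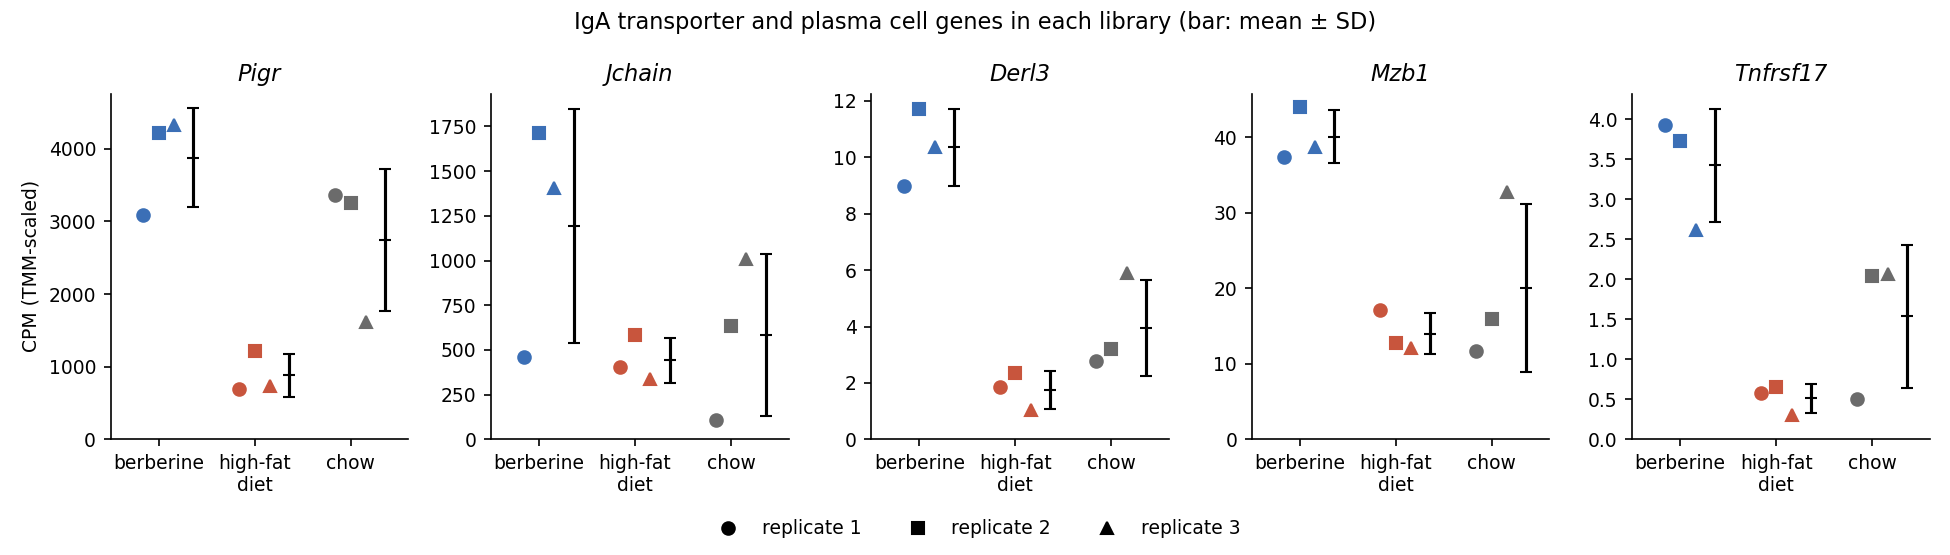
Each panel plots 1 gene in CPM on a linear axis from 0, with 1 symbol per library by replicate number and the mean ± SD of 3 libraries beside it, for berberine, high-fat diet and chow. Derl3, Mzb1 and Tnfrsf17 are highest in the 3 berberine libraries and Pigr is lowest in the 3 high-fat diet libraries. Jchain in replicate 1 of berberine and of chow is below the other replicates of the same group.

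Mzb1, the antibody chaperone, was highest in berberine. The gene (ENSMUSG00000024353) lies on chromosome 18 from 35647267 to 35649367 with 4 exons, and the predicted gene Gm50318, which overlaps it, had no counts in any library. The berberine libraries had 37.4, 44.0 and 38.8 CPM, the high-fat diet libraries 17.1, 12.8 and 12.2 CPM and the chow libraries 11.7, 15.9 and 32.7 CPM. Chow replicate 3 stood near the berberine level, and the other chow libraries lay within or next to the high-fat diet range. Mzb1 was 2.86-fold higher in berberine than in high-fat diet (log2 fold change 1.52 ± 0.35, edgeR adjusted p = 0.0125), while high-fat diet against chow gave -0.52 ± 0.35 (adjusted p = 0.287) and berberine against chow 1.0 ± 0.35 (adjusted p = 0.388). High-fat diet against chow moved to 0.03 for Mzb1 without chow replicate 3 and to -0.80 without chow replicate 1, and berberine against chow to 1.54 without chow replicate 3.

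Derl3, the Derlin family member, was at low levels, from 16 sequenced fragments in high-fat diet replicate 3 to 197 in berberine replicate 2, taking about 4 estimated counts per fragment. It stood at 8.99, 11.7 and 10.4 CPM in berberine, at 1.87, 2.34 and 1.03 CPM in high-fat diet and at 2.76, 3.19 and 5.90 CPM in chow. None of the 3 groups overlapped with another. Derl3 was 5.93-fold higher in berberine than in high-fat diet (log2 fold change 2.57 ± 0.41, edgeR adjusted p = 0.0024) and fell by 1.18 ± 0.39 in high-fat diet against chow (edgeR adjusted p = 0.0477). The fall lies at the threshold and was lost in 13 of 18 alternatives. Among these, leaving out berberine replicate 1, 2 or 3 gave Derl3 an adjusted p of 0.0682, 0.0707 or 0.0732. Leaving out replicate 1 or 3 of high-fat diet gave 0.0939 or 0.121, and leaving out replicate 2 or 3 of chow gave 0.0611 or 0.149. Without chow replicate 3 the log2 fold change of Derl3 was -0.76. Berberine against chow gave 1.39 ± 0.39 for Derl3, with adjusted p = 0.314 in edgeR and 0.0326 in DESeq2. The related Derl1 and Derl2, which are made in many cell types, gave 0.09 ± 0.12 and 0.11 ± 0.10 in berberine against high-fat diet (edgeR adjusted p = 0.586 and 0.460).

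Tnfrsf17, the BCMA receptor, rested on the fewest reads, about 5 to 10 fragments in each high-fat diet library and 40 to 62 in each berberine library. Its levels were 3.93, 3.72 and 2.62 CPM in berberine, 0.582, 0.653 and 0.306 CPM in high-fat diet and 0.506, 2.04 and 2.07 CPM in chow. Every berberine library was above every other library, and chow replicate 1 fell within the high-fat diet range. The rise in berberine over high-fat diet was 6.65-fold (log2 fold change 2.73 ± 0.57, edgeR adjusted p = 0.00787). High-fat diet against chow gave -1.58 ± 0.55 for Tnfrsf17 (edgeR adjusted p = 0.0574), and this passed without chow replicate 1 (-1.99, adjusted p = 0.0123) and in DESeq2 (adjusted p = 0.0249). Berberine against chow was 1.16 ± 0.53 (edgeR adjusted p = 0.469; 0.73 on the log2 scale without chow replicate 1).

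Jchain, the dimer linker, had the widest errors of the 5 genes and passed in no comparison. It stood at 458, 1713 and 1408 CPM in berberine, at 402, 584 and 339 CPM in high-fat diet and at 110, 634 and 1008 CPM in chow. Berberine replicate 1 lay within the high-fat diet range, so the groups overlapped. The log2 fold changes of Jchain were -0.40 ± 0.71 for high-fat diet against chow (edgeR adjusted p = 0.705), 1.43 ± 0.73 for berberine against high-fat diet (adjusted p = 0.168) and 1.03 ± 0.72 for berberine against chow (adjusted p = 0.638). The sign of Jchain in high-fat diet against chow was not fixed, with 0.26 without chow replicate 3, 0.07 with the replicate number as a block, and 0.18 with limma at either pseudocount. Other values for it were -0.90 without chow replicate 1, -0.66 when high-fat diet replicate 2 was left out and -0.24 when replicate 3 was. For berberine against chow, Jchain gave 0.68 without berberine replicate 2, 0.53 without chow replicate 1 and 1.68 without chow replicate 3.

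**Figure D2:**
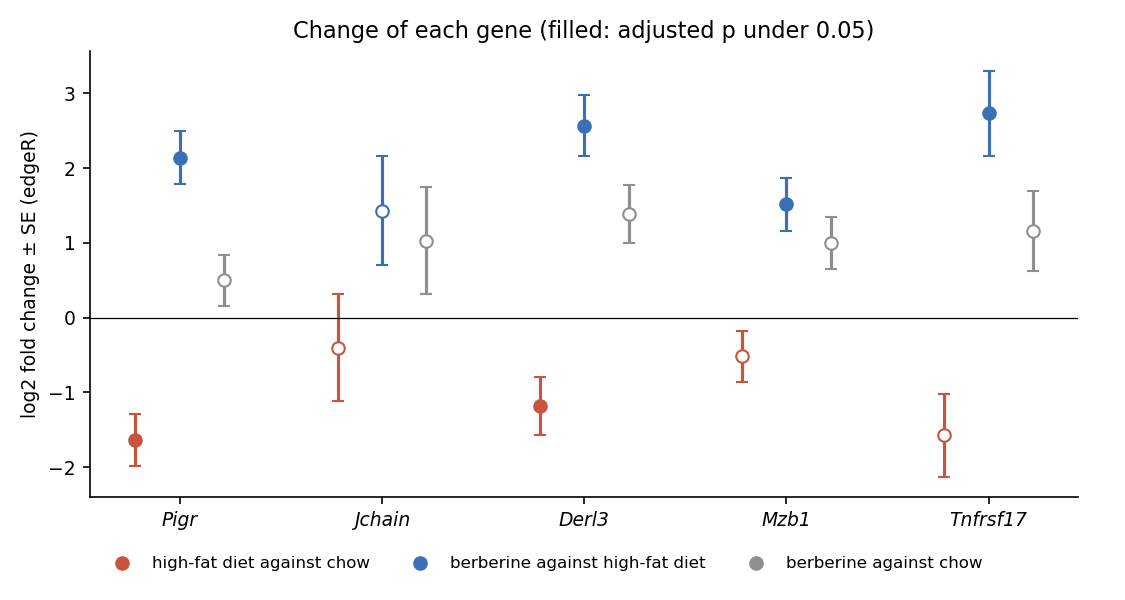
Log2 fold change ± SE from edgeR for each gene in high-fat diet against chow, berberine against high-fat diet and berberine against chow, with filled points where adjusted p was under 0.05. In berberine against high-fat diet the values run from 1.43 for Jchain to 2.73 for Tnfrsf17, and in high-fat diet against chow from -1.64 for Pigr to -0.40 for Jchain.

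Counted over the comparisons, 4 of the 5 genes rose in berberine against high-fat diet, where 15.8% of all tested genes rose and 14.9% fell, and the median of the 5 was 2.14 against -0.01 for all tested genes. The same 4 did not overlap between these groups, as was the case in the upward direction for 24.8% of all tested genes. In high-fat diet against chow 2 of 5 fell, Pigr and Derl3, where 16.6% of tested genes fell and 15.2% rose, with a median of -1.18 against 0.00 for all. Both of these lay below chow without overlap, as did 22.6% of tested genes. In berberine against chow 0 of 5 passed by edgeR, where 0.0483% of all genes passed, although 2 had an unadjusted p under 0.05, as had 1579 of all tested genes. DESeq2 called 1 of the 5, Derl3, where it called 384 of the 14506 tested genes in either direction. In that comparison Derl3, Mzb1 and Tnfrsf17 did not overlap, all higher in berberine, as did 8.73% of tested genes in that direction. Each pair of comparisons shares the libraries of 1 group, so they are not independent of each other.

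Per length of transcript, the order in berberine was Pigr at 836 ± 133 FPKM, Jchain at 410 ± 224 FPKM, Mzb1 at 28.7 ± 2.64 FPKM, Derl3 at 4.5 ± 0.59 FPKM and Tnfrsf17 at 3.66 ± 0.84 FPKM (SD, n = 3 each). In high-fat diet the levels were 204 ± 72.6 FPKM for Pigr, 164 ± 50.7 FPKM for Jchain, 10.7 ± 2.21 FPKM for Mzb1, 0.805 ± 0.320 FPKM for Derl3 and 0.583 ± 0.225 FPKM for Tnfrsf17. In chow they were 581 ± 204, 198 ± 156, 14.2 ± 8.14, 1.68 ± 0.76 and 1.59 ± 0.91 FPKM in the same gene order. Derl3 and Tnfrsf17 overlapped in every group, and Pigr and Jchain overlapped in high-fat diet. Pigr and Jchain were close to equal in chow replicate 3, at 350.0 and 349.9 FPKM, whereas chow replicate 1 had 738 and 38.7 FPKM.

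Since Pigr is made by epithelial cells, its level was also set against epithelial genes in the same library. All 16 genes of a general epithelial list, among them Epcam, a cell adhesion molecule, and the keratin gene Krt8, passed the filter. The log2 level of Pigr exceeded the mean of the list by 2.57, 2.97 and 2.76 in berberine, by 0.83, 1.32 and 0.72 in high-fat diet and by 2.53, 2.33 and 1.51 in chow. High-fat diet less chow was -1.17 on this measure (0.95 ± 0.32 in high-fat diet and 2.12 ± 0.54 in chow, SD, n = 3 each; exact two-sided permutation p = 0.1). Berberine was 1.81 above high-fat diet (exact permutation p = 0.1) and 0.64 above chow (exact permutation p = 0.1; 0.33 without chow replicate 3), and 0.1 is the smallest p that 3 against 3 allows. Of the 16 genes, 5 fell and 1 rose in high-fat diet against chow, where 16.6% of all tested genes fell and 15.2% rose. In berberine against high-fat diet 5 rose and 1 fell, where 15.8% of all tested genes rose and 14.9% fell. Those that fell in high-fat diet included Cdx2 and Cdx1, intestinal transcription factor genes, by 2.45 ± 0.41 and 1.35 ± 0.14 on the log2 scale, and Krt18, a keratin gene, rose by 0.83 ± 0.15. Epcam, the defining marker, gave -0.06 ± 0.18 in high-fat diet against chow and 0.01 ± 0.18 in berberine against high-fat diet (edgeR adjusted p = 0.853 and 0.980).

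Markers of mature epithelial cells moved with Pigr in the comparisons that involve high-fat diet. In berberine against chow the median was -0.45 for absorptive colonocyte genes and 0.14 for goblet cell genes, while Pigr gave 0.50, which did not pass. Of 13 genes of absorptive colonocytes, 12 fell in high-fat diet against chow and 10 rose in berberine against high-fat diet, against 16.6% and 15.8% of all tested genes. Their score ran from -1.01 to -0.22 in berberine, from -3.69 to -2.87 in high-fat diet and from -0.50 to 0.68 in chow. Of 12 goblet cell genes, 7 fell and 1 rose in high-fat diet against chow, where 16.6% of all tested genes fell and 15.2% rose. In berberine against high-fat diet 7 rose and 1 fell, where 15.8% of all tested genes rose and 14.9% fell. Goblet cell scores ran from -0.31 to 0.49, from -2.68 to -0.98 and from -0.81 to 0.87 in berberine, high-fat diet and chow. The general epithelial score ran from -0.20 to 0.10 in berberine, from -0.62 to -0.28 in high-fat diet and from -0.07 to 0.11 in chow. In bulk tissue, fewer cells of a type and less RNA per cell cannot be told apart, and the part of these markers in the Pigr result was not tested.

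**Figure D3:**
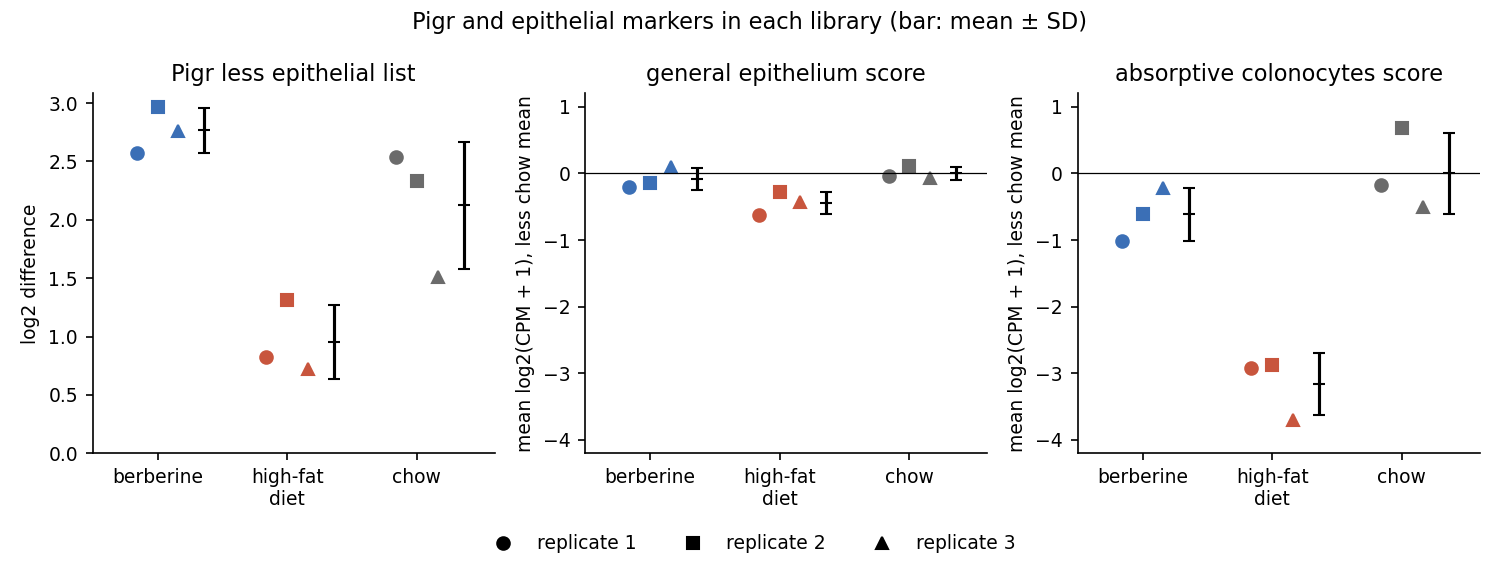
Left, log2(CPM + 1) of Pigr less the mean of 16 epithelial genes; middle and right, scores of the general epithelial and absorptive colonocyte lists relative to the chow mean; symbols are libraries and bars mean ± SD, n = 3. Pigr stands 0.72 to 1.32 above the epithelial list in high-fat diet and at least 1.51 above it in all other libraries.

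On the plasma cell side, antibody genes and other markers were next compared. Igha, the IgA heavy chain constant gene, averaged 1816 ± 237 FPKM in berberine, 663 ± 128 FPKM in high-fat diet and 852 ± 465 FPKM in chow (SD, n = 3 each), and rose in berberine against high-fat diet (log2 fold change 1.55 ± 0.39, edgeR adjusted p = 0.0167). Igha made up 83.1% to 89.8% of the summed heavy chain constant FPKM in berberine, 79.5% to 92.5% in high-fat diet and 75.4% to 87.4% in chow, ranges that overlap. Of the 11 tested constant region genes 7 rose in berberine against high-fat diet (median 1.55), where 15.8% of all genes rose, and 3 fell in high-fat diet against chow (median -0.49), where 16.6% of all genes fell. Ighm, the IgM constant gene, had 291 ± 74.1 CPM in berberine, 75.2 ± 37.5 CPM in high-fat diet and 178 ± 57.3 CPM in chow. The light chain gene Iglc1 had 403 ± 117 CPM in berberine, 43.4 ± 22.7 CPM in high-fat diet and 51.6 ± 27.0 CPM in chow, and Iglc2 and Iglc3 rose by 1.83 ± 0.37 and 2.17 ± 0.45 on the log2 scale in berberine against high-fat diet. The Iglc genes resemble each other closely, so the split of reads among them is uncertain.

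Jchain did not keep a fixed ratio to Igha. For every 100 FPKM of Igha, Jchain had 9.48, 28.6 and 28.6 FPKM in the berberine libraries, 26.2, 27.2 and 20.1 FPKM in the high-fat diet libraries and 9.09, 26.1 and 26.0 FPKM in the chow libraries. Replicate 1 of berberine and replicate 1 of chow were thus low, and the other libraries lay between 20.1 and 28.6. Mzb1, set against Igha in the same way, had 1.60, 1.52 and 1.63 FPKM in berberine, 2.31, 1.23 and 1.49 FPKM in high-fat diet and 1.99, 1.35 and 1.74 FPKM in chow. The libraries low in Jchain per Igha were thus not low in Mzb1 per Igha. Mzb1 itself was lowest of all libraries in chow replicate 1, at 11.7 CPM. The libraries low in Jchain per Igha are also the chow library with the highest squamous score and 1 of the 2 berberine libraries with a high adipocyte score. The part of those tissues in the Jchain values was not tested.

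**Figure D4:**
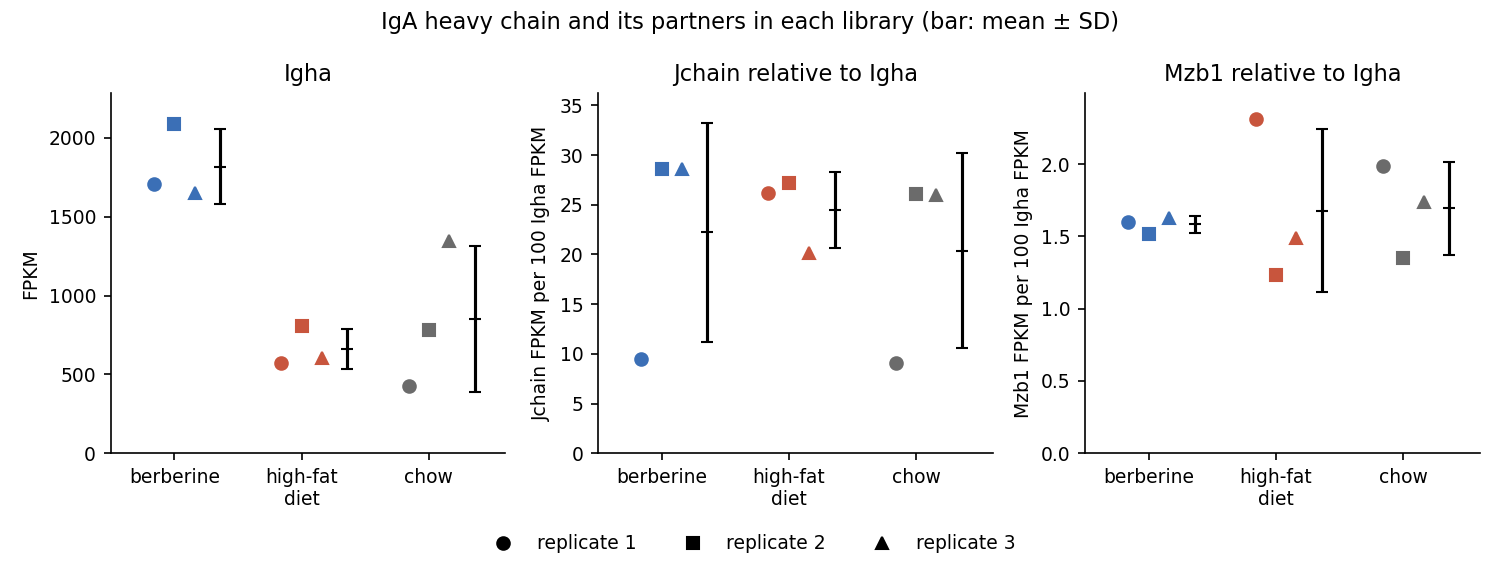
Igha in FPKM, and Jchain and Mzb1 as FPKM per 100 FPKM of Igha, in each library on linear axes from 0, with mean ± SD of 3 libraries. Jchain is at 9.48 in berberine replicate 1 and 9.09 in chow replicate 1, and between 20.1 and 28.6 in the other libraries.

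Of 14 other plasma cell identity genes tested out of 17, 8 rose and 1 fell in berberine against high-fat diet (median 1.11), against 15.8% and 14.9% of all tested genes. In high-fat diet against chow 2 rose and 4 fell (median -0.62), against 15.2% and 16.6% of all tested genes, so the share that rose was near that of all genes. Ccr10, the receptor for the chemokine Ccl28 on IgA cells, had 7.33 ± 1.57 CPM in berberine, 2.00 ± 0.14 CPM in high-fat diet and 3.31 ± 0.51 CPM in chow. Itga4 and Itgb7, which encode the chains of the gut homing integrin, rose by 1.37 ± 0.15 and 1.81 ± 0.29 on the log2 scale in berberine against high-fat diet (edgeR adjusted p = 0.000472 and 0.0024). T cells make these integrin chains too. Sdc1, a plasma cell surface marker that epithelial cells also make, went the other way, at 160 ± 23.5 CPM in berberine, 447 ± 76.5 CPM in high-fat diet and 208 ± 52.9 CPM in chow (berberine against high-fat diet -1.49 ± 0.21, edgeR adjusted p = 0.00153). Among regulator genes of the list, Irf4 and Pou2af1 rose by 2.03 ± 0.34 and 1.49 ± 0.30 in that comparison. Prdm1, Xbp1 and Bhlha15 gave 0.064 ± 0.309, 0.535 ± 0.247 and 0.841 ± 0.370 and did not pass (edgeR adjusted p = 0.894, 0.133 and 0.119). Tent5c gave -0.64 ± 0.29 (edgeR adjusted p = 0.129), and it rose by 1.64 ± 0.30 in high-fat diet against chow.

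Markers of other leukocytes were measured in the same libraries. In berberine against high-fat diet, where 15.8% of all tested genes rose and 14.9% fell, all 6 pan-leukocyte genes, all 13 tested B cell genes and all 7 tested T cell genes rose, with medians of 1.33, 1.99 and 2.05. In high-fat diet against chow 16.6% of all tested genes fell and 15.2% rose. There 11 of the B cell and 6 of the T cell genes fell. Of the 6 pan-leukocyte genes 1 fell by edgeR, a share near that of all genes, with a median of -0.81. DESeq2 called 4 of these 6 lower in that comparison, where it called 5585 of the 14506 tested genes in either direction. Of 8 macrophage genes, 1 rose and 1 fell in berberine against high-fat diet (median -0.14), and 3 rose and 0 fell by edgeR in high-fat diet against chow. Of 6 mast cell genes, 1 rose and 5 fell in berberine against high-fat diet (median -7.47), and 5 rose and 1 fell in high-fat diet against chow (median 9.64). The leukocyte score ran from 0.34 to 0.97 in berberine, from -0.87 to -0.35 in high-fat diet and from -0.22 to 0.27 in chow, and the B cell score from 0.24 to 1.14, from -1.77 to -0.64 and from -0.20 to 0.35. The T cell score ran from 0.12 to 0.57, from -1.42 to -1.38 and from -0.58 to 0.57 in berberine, high-fat diet and chow. Measured against the leukocyte genes of the same library, the mean log2 level of Jchain, Derl3, Mzb1 and Tnfrsf17 was -1.66 ± 0.56 in berberine, -1.92 ± 0.32 in high-fat diet and -2.15 ± 0.73 in chow (SD, n = 3 each). These groups overlapped, with differences of 0.26 for berberine against high-fat diet (exact permutation p = 0.6), 0.23 for high-fat diet against chow (exact permutation p = 0.8) and 0.49 for berberine against chow (exact permutation p = 0.5). Leaving out 1 library moved them to between 0.10 and 0.59, between -0.19 and 0.47, and between 0.07 and 0.82, and the sign of high-fat diet against chow turned without chow replicate 1. A pseudocount of 0.1 gave 0.63 for berberine against high-fat diet and 0.02 for high-fat diet against chow. For 3 against 3 the smallest possible p of this measure is 0.1. The part of the other leukocytes in the plasma cell results was not tested. Genes of pancreatic acinar cells, another secretory cell, were all under the filter, with no value above 1.04 FPKM and Amy2a5 at 0 counts in every library.

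The secretory machinery of the endoplasmic reticulum was covered by 30 tested genes. Of these, 9 rose and 0 fell by edgeR in berberine against high-fat diet (median 0.28), where 15.8% of all tested genes rose. In high-fat diet against chow 3 rose and 2 fell (median 0.09), smaller shares than the 15.2% and 16.6% of all tested genes. Edem1, which sorts misfolded glycoproteins for degradation, had 208 ± 12.8 CPM in berberine, 99.0 ± 14.1 CPM in high-fat diet and 152 ± 38.6 CPM in chow. Ero1lb, an oxidase for disulfide formation, rose by 1.29 ± 0.25, Creld2 by 0.67 ± 0.15 and the chaperone Hsp90b1 by 0.58 ± 0.16 on the log2 scale in berberine against high-fat diet. Epithelial and goblet cells use the same machinery, so these values are not those of plasma cells alone.

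Signals that attract and keep IgA cells were followed through chemokines, adhesion molecules and cytokines. Of 10 tested genes out of 14, 4 fell in high-fat diet against chow (median -0.49), where 16.6% of all tested genes fell, and 5 rose in berberine against high-fat diet (median 1.11), where 15.8% rose. Ccl28, the epithelial chemokine for IgA cells of the colon, had 184 ± 42.0 CPM in berberine, 22.5 ± 5.86 CPM in high-fat diet and 157 ± 48.6 CPM in chow, with a fall of 2.80 ± 0.30 on the log2 scale in high-fat diet against chow (edgeR adjusted p = 0.000464). Madcam1, the vessel ligand of the homing integrin, had 18.5 ± 3.44 CPM in berberine, 3.84 ± 0.94 CPM in high-fat diet and 14.8 ± 4.54 CPM in chow. Vcam1, another adhesion molecule, and Tnfsf13b, which encodes BAFF, rose by 1.3 ± 0.20 and 0.99 ± 0.19 in berberine against high-fat diet. Il6, Il5, Il10 and Il21 were under the filter, at no more than 0.81 FPKM in any library.

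A list of 22 known inducers of Pigr held genes of cytokines, receptors, adaptors and transcription factors. The cytokine genes Il17a and Ifng were under the filter, at no more than 0.55 and 0.72 FPKM in any library, and the other 20 were tested. Of these, 6 rose and 1 fell in berberine against high-fat diet (median 0.09), where 15.8% of all tested genes rose and 14.9% fell. In high-fat diet against chow 3 rose and 4 fell (median -0.05), shares near the 15.2% and 16.6% of all tested genes. The interleukin 17 receptor chain gene Il17rc had 143 ± 32.9 CPM in berberine, 45.1 ± 5.12 CPM in high-fat diet and 129 ± 19.3 CPM in chow, while Tnf, an inflammatory cytokine gene, had 8.19 ± 3.25, 22.4 ± 2.71 and 5.86 ± 1.63 CPM in the same order. Il17ra, the partner chain, and Ifngr1, an interferon gamma receptor chain, rose by 0.81 ± 0.15 and 1.66 ± 0.32 in berberine against high-fat diet. Of 10 genes of vesicle transport, 1 fell in high-fat diet against chow (median -0.04), and 1 rose and 1 fell in berberine against high-fat diet (median -0.06), shares below those of all tested genes. The gene that fell in high-fat diet was Rab3b, a GTPase that binds the Pigr protein, which had 26.8 ± 5.01 CPM in berberine, 5.06 ± 1.70 CPM in high-fat diet and 24.3 ± 10.4 CPM in chow, with a fall of 2.26 ± 0.37 in high-fat diet against chow (edgeR adjusted p = 0.00274). Rab11fip5, a Rab11 effector, fell by 1.0 ± 0.21 in berberine against high-fat diet. Rab17 and Rab11a, GTPases of the recycling compartment, gave 0.25 ± 0.33 and -0.30 ± 0.13 in that comparison (edgeR adjusted p = 0.600 and 0.118).

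**Figure D5:**
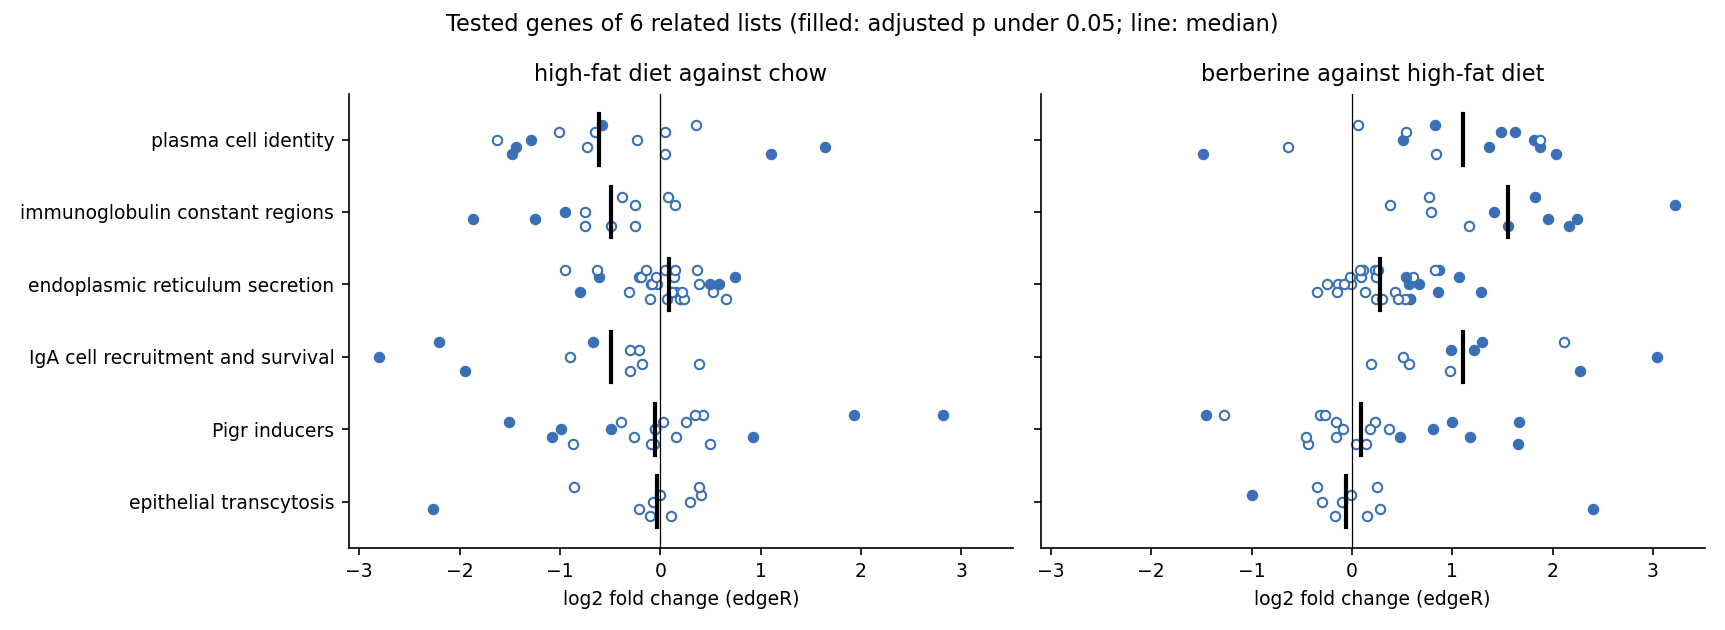
Log2 fold changes (edgeR) of the tested genes of 6 related lists in high-fat diet against chow and in berberine against high-fat diet, 1 point per gene, filled where adjusted p was under 0.05, with a line at each list's median. The medians in berberine against high-fat diet run from -0.06 for epithelial transcytosis to 1.55 for the immunoglobulin constant regions.

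In berberine against chow, 0 of the 95 genes of these 6 lists passed by edgeR. At an unadjusted p under 0.05 there were 28 higher and 2 lower, and DESeq2 called 11, all higher in berberine. Over all 14506 tested genes, 1579 had an unadjusted p under 0.05 and DESeq2 called 384, both in either direction. These 2 totals were not split by direction, so the lean of the lists toward berberine has no all-gene share beside it.

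The genes nearest to each pattern were found by the root mean square difference of log2(CPM + 1) over the 9 libraries, each gene centred on its own mean. For Pigr, which ranged over 2.65 log2 units, they were Ipmk (0.18), Iqgap2 (0.22), Tspan1 (0.22), Edn1 (0.25) and Adgrg7 (0.26). Mzb1 was nearest to Ncf4 (0.22), Tekt3 (0.24), Dnase1l3 (0.29), Pla2g2d (0.31) and, in the fifth place, Tnfrsf17 (0.31). The pseudocount of 1 shrinks the range of low genes such as Tnfrsf17, which on this scale was 1.92 log2 units against 1.83 for Mzb1. Derl3 was nearest to Tekt3 (0.30), Ncf4 (0.31), Mndal (0.32), Slc5a3 (0.32) and Saa1 (0.33), and Tnfrsf17 to Stac2 (0.21), H2-Eb2 (0.25), Mndal (0.26), Pik3r5 (0.26) and Gja4 (0.27). The nearest genes to Jchain were farther from it, Nfat5 (0.60), Cx3cl1 (0.64), Cbl (0.66), Pcyt1a (0.70) and Ccl21d (0.70), over a range of 3.95 log2 units.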

How the data were processed

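Poly(A) RNA of 9 mouse colonic tissue libraries was sequenced in pairs with strand marking and molecular identifiers, per the labels' protocols. The tools named in the submitters' processing notes are DESeq2 and edgeR, StringTie 1.3.4d, UMI-tools, HISAT2 2.0.4 and cutadapt 1.9, with the build GRCm38. The role of each tool, and whether counting used strand, are not given in the sources used here. The deposited table holds an estimated count and an FPKM value per gene and library, per the file headers. The estimated counts, as the authors deposited them, are whole numbers not scaled between libraries, and low values pile up near multiples of 4. The deposited FPKM values are set to 0.0001 where the count is 0.

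Estimated counts were fitted with edgeR 4.0.16 (quasi-likelihood, TMM scaling, all 9 libraries in 1 fit; R 4.3.3) over the 14506 genes whose mean reached 1 FPKM, which held 98.9% of counts. A gene rose or fell when its Benjamini-Hochberg adjusted p over all tested genes was under 0.05. Each SE was derived from the fold change and its F statistic. Pigr against epithelial genes and the plasma cell genes against leukocyte genes were compared on log2(CPM + 1) by exact two-sided permutation tests. Scripts were tested on simulated data. Alternatives were limma 3.58.1, DESeq2 1.42.0, other scalings, filters and groups of libraries, a replicate block, counts divided by 4 and each library left out.

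The genes and lists were chosen with earlier results of these data known. All 5 genes are named, and from each of 6 related lists the 4 with the smallest p in the joint test of the 3 groups. Epcam, Krt8, Krt18, Cdx1, Cdx2 and Amy2a5 come from marker lists. Igha, Derl1, Derl2, Gm50318, Irf4, Pou2af1, Prdm1, Xbp1, Bhlha15, Tent5c and the genes listed as under the filter were named outside this rule, after their values were seen.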

Additional observations from a re-analysis of the deposited data

How the results depend on the processing

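The rises of Pigr, Derl3, Mzb1 and Tnfrsf17 in berberine against high-fat diet, and the fall of Pigr in high-fat diet against chow, kept direction and call under every alternative that could be run (19 each, 18 for Derl3 and Tnfrsf17, which a minimum of 5 FPKM removed). With limma on log2(FPKM + 1), whose pseudocount shrinks low genes, the rises of Derl3 and Tnfrsf17 were 1.62 and 1.55. Jchain passed under none of its 19. The fall of Derl3 in high-fat diet was not called at a log2 fold change of -1.05 with library totals, -1.14 without a filter, -1.16 with the replicate block, -1.18 with only the 2 groups, and -0.55 and -0.96 with limma on log2(FPKM + 1) and log2(FPKM + 0.1), and it ran from -1.44 to -0.76 with 1 library left out. For Tnfrsf17, high-fat diet against chow, DESeq2 gave -1.59 and passed, limma gave -0.65 and -1.17 with pseudocounts of 1 and 0.1, and leaving out 1 library gave -1.99 to -1.29. Mzb1 in the same comparison was -0.26 and -0.27 with limma. For Derl3, berberine against chow, DESeq2 gave 1.39 and passed. The causes were not tested.

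Genes changed over the whole table in high-fat diet against chow and berberine against high-fat diet numbered 4613 and 4460, and 3008 and 2855 at a minimum of 5 FPKM, where 8187 genes were tested. Leaving out 1 library gave 3573 to 4325 and 2960 to 4740, the 2960 without berberine replicate 2. In berberine against chow 7 genes changed, 2 with DESeq2 size factors, the replicate block, divided counts or only the 2 groups, 384 by DESeq2 and 1 to 7 with 1 library left out. Whether replicate numbers pair the libraries was not settled. Same-numbered deviations correlated from -0.099 to 0.16, and of 6 libraries 4, 4 and 2 matched their own number best in the 3 comparisons. The block gave 4344, 4286 and 2 changed genes. Counts limit Tnfrsf17 most, with about 5 fragments in high-fat diet replicate 3.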
